A study of Mus musculus with 16 samples.

Results

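The insulin-like growth factor (IGF) system was followed in sorted mouse mammary epithelium through 10 listed genes. These are the ligands Igf1 and Igf2, the receptor Igf1r, the binding proteins Igfbp2 to Igfbp7 and the docking protein Irs1. The array's probe table gave probe sets for 9 of the 10, out of 17097 named genes, and Igfbp7 was not analysed here. Each gene is represented by its probe set with the highest mean over the 16 arrays. RNA was hybridised to Affymetrix arrays from 4 female mice of line DMI and strain C57BL/6J 129, aged 10 weeks and 2 days. The 2 wild-type mice were Sox2-Cre +/+ ; Cpeb2 +/+ and the 2 knockout mice were Sox2-Cre +/+ ; Cpeb2 -/-, so every mouse carried the Cre, and no mouse without it was analysed here. Each of 2 parent pairs gave 1 mouse of each genotype, numbered 1 and 2 here. Each mouse gave 4 freshly sorted populations and so 4 arrays. Myoepithelial cells were sorted as Epcam low and CD49f high, and luminal cells as Epcam high and CD49f low. Within the luminal gate, Sca1+ cells without CD49b were taken as non-clonogenic luminal. Cells with both markers were taken as ductal progenitors, and CD49b+ cells without Sca1 as alveolar progenitors. The Sox2 promoter is known to drive Cre in the epiblast, so the deletion is not limited to the mammary gland. The sources used here do not give the stage of the estrous cycle.

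IGF ligands bind the receptor tyrosine kinase IGF1R, which passes the signal through IRS docking proteins to the PI3K and AKT kinases. Secreted IGF binding proteins hold the ligands, extend their life and limit or deliver them to the receptor, and proteases such as PAPP-A free the ligand by cleaving them. In the mammary gland, IGF1 made by the stroma under growth hormone is needed for ductal growth, and IGFBP5 is known for its rise during involution, the regression of the gland after weaning.

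Calls among the members came from the comparisons of cell populations. Igf1r and the binding proteins Igfbp2, Igfbp3, Igfbp4, Igfbp5 and Igfbp6 were higher in myoepithelial cells than in the mean of the 3 luminal populations, and Irs1 was lower. Within the luminal cells, Igf1r, Igfbp5 and Irs1 were lower in ductal than in alveolar progenitors. Neither ligand was called in these comparisons. No member was called between knockout and wild type in any of the populations.

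All levels are log2 signals as deposited, and all differences are log2 differences with the standard error of a limma fit over the 16 arrays. P-values were adjusted by Benjamini-Hochberg over all 17097 genes, and a call needs an adjusted p under 0.05. A probe set's level is set only against its own level in other arrays, since probes differ in response. The lower quartile of an array, between 5.08 and 5.18, serves as a mark of low signal. Replicate arrays, 2 per genotype and population, correlated at r = 0.975 to 0.991, and 2 per group limits the precision of every knockout comparison.

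The labels were checked against the targeted gene and against markers. Cpeb2, which encodes an RNA-binding regulator of translation, was at 7.88 to 8.66 in the Sca1+ cells of wild-type mice and at 6.39 to 7.67 in those of knockout mice. The genotypes did not overlap in any population, and the mean knockout difference was -0.92 ± 0.21 (adjusted p = 0.0201), though in no single population was it called. Whether its probe set lies in the deleted part is not stated in the sources used here. The mean of 8 myoepithelial markers lay at 12.0 to 12.2 in the myoepithelial arrays and at 6.09 to 7.09 in the luminal arrays. The 6 luminal markers lay at 11.8 to 12.4 in luminal arrays and at 9.30 to 9.88 in myoepithelial arrays. Alveolar markers lay at 10.2 to 11.1 in alveolar progenitors, 8.36 to 9.36 in ductal progenitors and 6.28 to 6.49 in non-clonogenic luminal cells. The mean of 7 fibroblast markers set 1 library apart, since it was 8.24 in the ductal progenitors of wild-type mouse 1 and at most 6.75 in the other luminal arrays. Among its fibroblast markers, Col1a2 (4.58) and Pdgfra (4.85) were under the lower quartile in that library. Cell cycle genes differed by genotype in all populations: the mean of 9 such genes was 8.25 to 10.0 in wild-type luminal arrays and 6.17 to 6.91 in knockout luminal arrays.

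**Figure D1:**
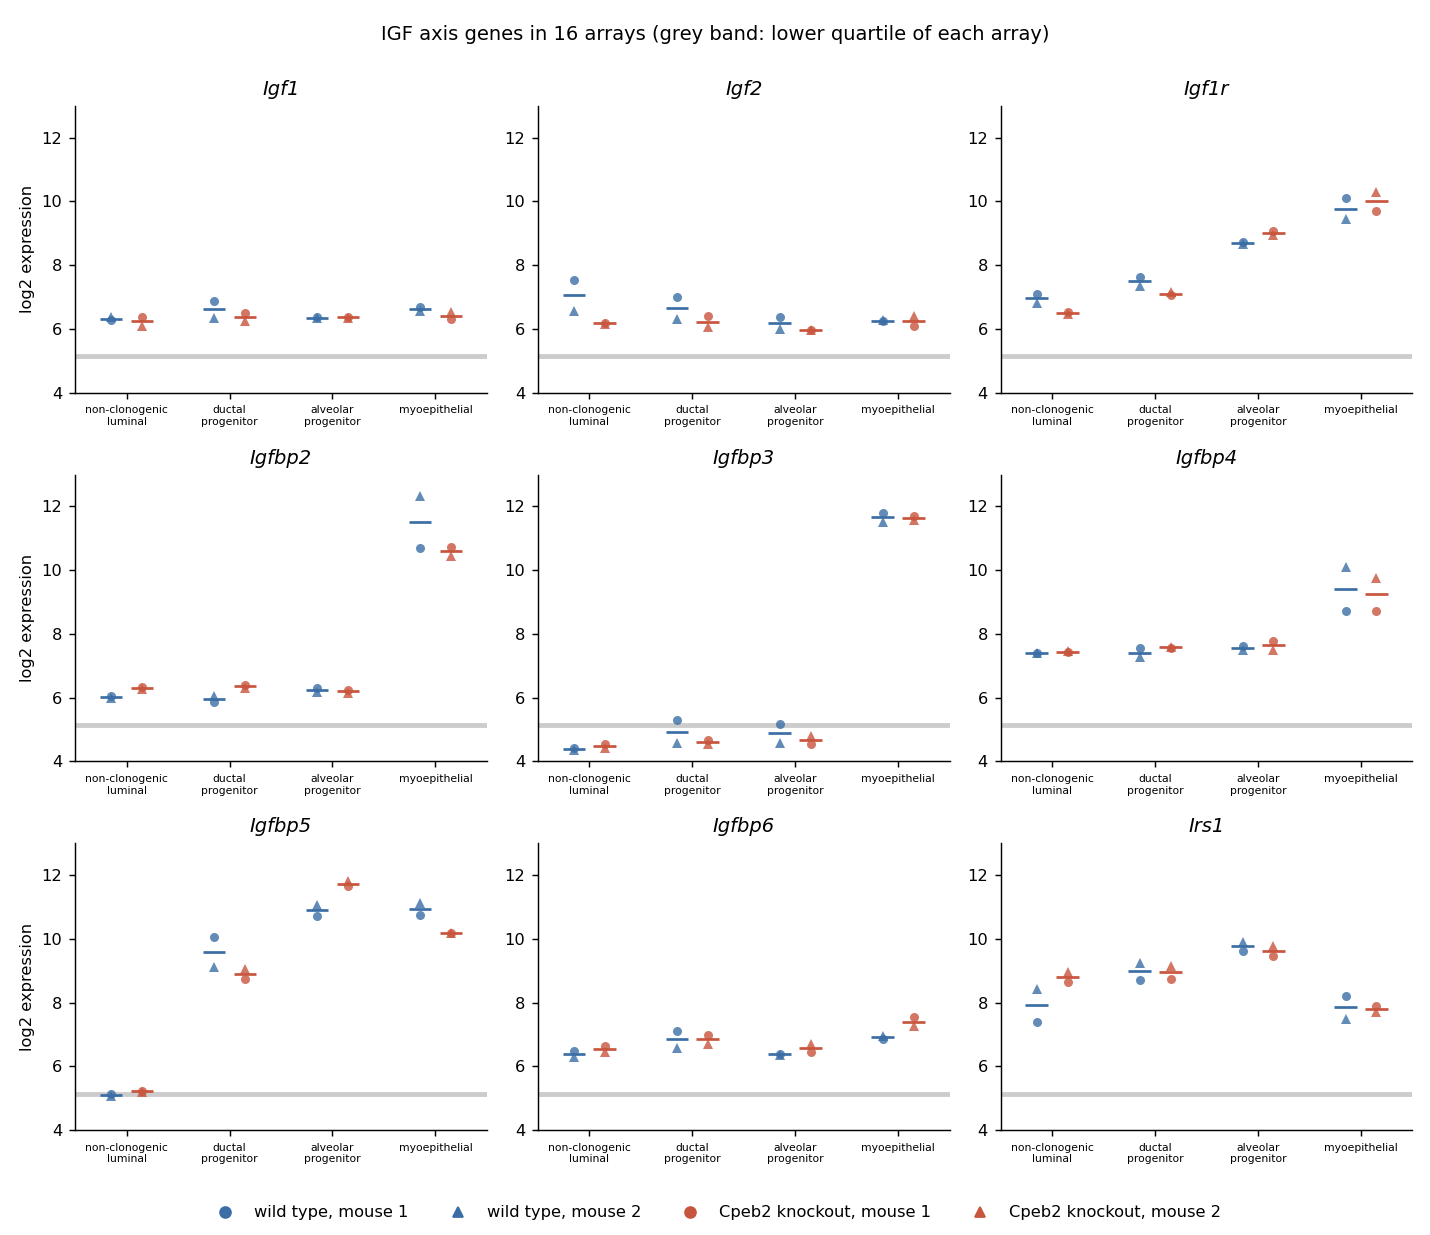
Log2 level of the 9 measured genes in each array (vertical axes) by sorted population (horizontal axes), with wild type in blue, knockout in red, circles for mouse 1, triangles for mouse 2 and short bars for the mean of each pair. The grey band is the range of the arrays' lower quartiles, 5.08 to 5.18. The 4 myoepithelial arrays stand above all 12 luminal arrays for Igf1r, Igfbp2, Igfbp3 and Igfbp4.

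Igf1 encodes the ligand that carries much of growth hormone's action on tissues. Its non-clonogenic luminal values were 6.29 and 6.36 in the wild-type mice and 6.38 and 6.10 in the knockout mice. In ductal progenitors the values were 6.87 and 6.35 in wild type and 6.51 and 6.26 in knockout. In alveolar progenitors they were 6.38 and 6.33 against 6.39 and 6.35. These levels sit at the middle of the arrays, whose medians were 6.35 to 6.40. In myoepithelial cells Igf1 was at 6.69 and 6.58 in wild type and at 6.31 and 6.51 in knockout. The ductal progenitors of wild-type mouse 1 held the highest value, and every population overlapped with the others. The other 3 Igf1 probe sets read 3.93 to 4.96, under the lower quartile in all arrays. Igf1 was not called in any comparison, and its myoepithelial level differed from the luminal mean by 0.14 ± 0.09 (adjusted p = 0.229). Against non-clonogenic luminal cells alone the myoepithelial level was 0.24 ± 0.11 higher (adjusted p = 0.108). That last difference passed the threshold when either wild-type ductal progenitor array was left out (adjusted p = 0.0447 without mouse 1 and 0.0457 without mouse 2).

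Igf2, the imprinted ligand best known for growth before birth, varied most among wild-type luminal arrays. In non-clonogenic luminal cells it lay at 7.53 and 6.58 in wild type and at 6.20 and 6.16 in knockout. In ductal progenitors it lay at 6.99 and 6.30 in wild type and at 6.40 and 6.05 in knockout. In alveolar progenitors the values were 6.37 and 5.98 against 5.98 and 5.97. Wild-type mouse 1 was the highest in each luminal population. In myoepithelial cells Igf2 was at 6.25 and 6.27 in wild type and at 6.09 and 6.39 in knockout, within 1 range. In non-clonogenic luminal cells a second Igf2 probe set gave the same order of mice, with 7.51 and 5.73 in wild type and 5.17 and 5.06 in the knockout. In the other populations its order of mice was not the same. Non-clonogenic luminal cells were 0.54 ± 0.19 above alveolar progenitors (adjusted p = 0.0551). This narrow miss became a call in 11 of 33 alternatives, among them the fit with the mouse as a fixed block (adjusted p = 0.0192) and the fit with the parent pair as a block (adjusted p = 0.0489).

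Igf1 and Igf2 are abundant in mammary stroma, as are several of the binding proteins. In the ductal progenitor library of wild-type mouse 1, which had the highest fibroblast marker mean, Igf1, Igfbp3 and Igfbp6 were the highest of the 12 luminal arrays and Igf2 was the second highest. Igfbp2 was the lowest of the 12 there, at 5.88. Igf1r, Igfbp4 and Igfbp5 were each 5th from the top there, and Irs1 was 9th. These are ranks of the brightest probe sets. Other Igfbp4 probe sets were the highest of the 12 there (8.49 and 7.41) or ranked 3rd or 4th, and other Igf1r probe sets ranked 5th or 6th. The part of other cells in these ligand values was not tested. In bulk sorted samples, fewer cells of a type and less RNA per cell cannot be told apart.

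**Figure D2:**
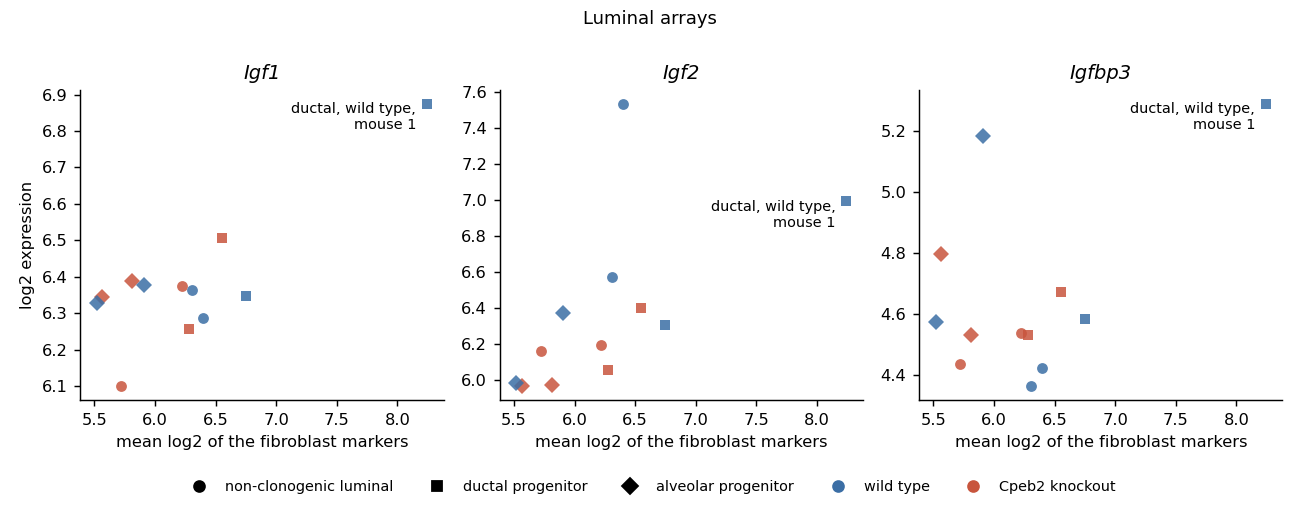
Log2 levels of Igf1, Igf2 and Igfbp3 (vertical axes) against the mean log2 level of 7 fibroblast markers (horizontal axis) in the 12 luminal arrays. Wild type is in blue and knockout in red, with circles for non-clonogenic luminal cells, squares for ductal and diamonds for alveolar progenitors. The ductal progenitor array of wild-type mouse 1, named in the panels, lies at 8.24 on the horizontal axis, beyond the next luminal array at 6.75.

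Igf1r, the receptor for both ligands, was graded across the populations. In myoepithelial cells it lay at 10.10 and 9.43 in wild type and at 9.71 and 10.28 in knockout. In alveolar progenitors it lay at 8.73 and 8.67 in wild type and at 9.06 and 8.95 in knockout. No myoepithelial array overlapped with an alveolar progenitor array. In ductal progenitors the values were 7.64 and 7.36 against 7.05 and 7.16. The non-clonogenic luminal values were 7.11 and 6.81 against 6.52 and 6.46. All 8 arrays of these 2 Sca1+ populations were below all alveolar progenitor arrays. The 2 populations overlapped with each other for this brightest probe set, but not for the other 3 Igf1r probe sets. Myoepithelial cells stood 2.25 ± 0.13 above the luminal mean, a 4.77-fold difference (adjusted p = 3.93e-08), and 1.03 ± 0.16 above alveolar progenitors (adjusted p = 0.000348). Alveolar progenitors stood above ductal progenitors by 2.94-fold (ductal minus alveolar -1.55 ± 0.16, adjusted p = 2.57e-05). All 4 Igf1r probe sets gave both calls, with differences of 2.25 to 3.14 between myoepithelial and luminal cells and of -2.60 to -1.55 between ductal and alveolar progenitors. The step from non-clonogenic luminal cells to ductal progenitors was not called for the brightest probe set (-0.58 ± 0.16, adjusted p = 0.263). It was called for the other 3 probe sets (-1.14 to -1.06), for the mean of the 4 (-0.97, adjusted p = 0.00832) and when only the arrays of those populations were fitted (adjusted p = 0.0274).

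Binding proteins gave the widest range of any members. Promoter sequences of 3 of them are shown here because Igfbp3, Igfbp4 and Igfbp5 were called with very different sizes and patterns, and each has a TATA-box form in the 100 bases before its annotated start. Each line gives those 100 bases 5′ to 3′ on the gene's strand, from RefSeq on build GRCm38.p6, with the TATA form in capitals.
Igfbp3, chr11:7213924-7214023, minus strand: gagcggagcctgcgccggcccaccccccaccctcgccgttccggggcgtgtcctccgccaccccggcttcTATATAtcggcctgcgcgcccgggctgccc
Igfbp4, chr11:99041144-99041243, plus strand: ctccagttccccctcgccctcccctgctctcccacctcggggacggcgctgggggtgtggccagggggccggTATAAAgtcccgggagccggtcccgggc
Igfbp5, chr1:72874866-72874965, minus strand: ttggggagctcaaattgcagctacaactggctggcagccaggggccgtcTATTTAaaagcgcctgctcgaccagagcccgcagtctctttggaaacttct
The first base of the form is at -30 in Igfbp3, -28 in Igfbp4 and -51 in Igfbp5. The search was for TATAAA as well as TATATA as well as TATTTA, on both strands of the RefSeq windows of 250 bases before to 50 bases after a start. TATATA is its own reverse complement, so both strands give 1 match. All 10 listed genes had a window, and 4 of the 6 binding protein genes held a form, the other being Igfbp6. None of the other 4 genes held one, and of all 32851 windows 25.8% did. CACGTG, an E-box, was in a window of Igfbp2 and of Irs1 and in 7.15% of all windows. A match is a description of the letters.

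Igfbp2, which binds IGF2 with high affinity, was far higher in myoepithelial than in luminal sorts. It lay at 10.70 and 12.33 in wild-type and at 10.73 and 10.46 in knockout myoepithelial cells. The 12 luminal arrays ranged from 5.88 to 6.40, and 11 of them were under the median of their array. The wild-type myoepithelial array of mouse 2 was the highest and no luminal array came near the myoepithelial ones. The difference was 4.87 ± 0.20, or 29.3-fold (adjusted p = 1.88e-09). Among the luminal populations no pair was called.

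Igfbp3, the main carrier of IGF in blood and here the gene of the TATATA promoter, showed the largest difference of the 9 members. It lay at 11.81 and 11.51 in wild-type and at 11.70 and 11.56 in knockout myoepithelial cells. In non-clonogenic luminal cells it lay at 4.43 and 4.36 in wild type and at 4.54 and 4.44 in knockout. In ductal progenitors it lay at 5.29 and 4.59 against 4.67 and 4.53, and in alveolar progenitors at 5.18 and 4.57 against 4.53 and 4.80. The myoepithelial arrays lay close together, and 10 of the 12 luminal arrays were under the lower quartile. The only luminal arrays above it were those of wild-type mouse 1 in the progenitors. The difference of 6.98 ± 0.13 (adjusted p = 1.11e-12), a ratio of 127, is therefore a lower bound in size.

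Igfbp4, a binding protein cut by PAPP-A and known mainly as an inhibitor of IGF action, was less evenly expressed among the myoepithelial sorts. It lay at 8.71 and 10.11 in wild-type and at 8.73 and 9.76 in knockout myoepithelial cells. Mouse 2 of each genotype was above mouse 1 there. The luminal arrays ranged from 7.28 to 7.77, below every myoepithelial array. The difference was 1.82 ± 0.22, or 3.54-fold (adjusted p = 2.41e-05). All 6 Igfbp4 probe sets gave this call, with differences of 1.73 to 4.32.

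Igfbp5, a binding protein that also sits in the extracellular matrix, split the luminal cells further than any other member. In non-clonogenic luminal cells it lay at 5.14 and 5.06 in wild type and at 5.24 and 5.20 in knockout. In ductal progenitors it lay at 10.07 and 9.11 in wild type and at 8.73 and 9.06 in knockout. In alveolar progenitors it lay at 10.73 and 11.05 in wild type and at 11.65 and 11.81 in knockout. The 3 luminal populations did not overlap, and the non-clonogenic luminal level was near the low-signal mark, with 1 of its 4 arrays under the lower quartile. In myoepithelial cells it was at 10.76 and 11.13 in wild type and at 10.19 and 10.18 in knockout. Non-clonogenic luminal cells were below ductal progenitors by 16.9-fold (-4.08 ± 0.19, adjusted p = 2.11e-07) and below alveolar progenitors by 70.9-fold (-6.15 ± 0.19, adjusted p = 8.70e-10). Ductal progenitors were below alveolar progenitors by 4.19-fold (-2.07 ± 0.19, adjusted p = 8.82e-06). Myoepithelial cells were above the luminal mean by 3.98-fold (1.99 ± 0.15, adjusted p = 4.55e-07). Since the non-clonogenic luminal level was near the low-signal mark, the ratios that involve it are lower bounds in size.

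For Igfbp5 the place of myoepithelial cells next to alveolar progenitors rests on the knockout arrays. Over both genotypes the myoepithelial level was lower by 1.68-fold (-0.74 ± 0.19, adjusted p = 0.00840). In wild-type arrays alone the difference was 0.05 (adjusted p = 0.899), with the arrays of both populations interleaved, and in knockout arrays alone it was -1.54 (adjusted p = 0.00104). The call was lost without knockout mouse 1 (-0.79, adjusted p = 0.0921) or knockout mouse 2 (-0.70, adjusted p = 0.141). These within-genotype values were chosen after the data were seen, and their difference was not tested on its own.

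Igfbp6, which prefers IGF2 over IGF1, moved least among the called members. In myoepithelial cells it lay at 6.87 and 6.95 in wild type and at 7.55 and 7.26 in knockout. In ductal progenitors it lay at 7.12 and 6.59 in wild type and at 7.0 and 6.71 in knockout. The knockout myoepithelial arrays were the highest of all, and the wild-type ones overlapped with the ductal progenitors. Its non-clonogenic luminal values were 6.50 and 6.29 against 6.63 and 6.44. In alveolar progenitors it was at 6.39 and 6.36 against 6.45 and 6.71. Myoepithelial cells exceeded the luminal mean by 1.47-fold (0.56 ± 0.10, adjusted p = 0.000773), but in wild-type arrays alone the difference was 0.37 (adjusted p = 0.0653). Myoepithelial cells exceeded non-clonogenic luminal cells by 0.69 (adjusted p = 0.000739) and alveolar progenitors by 0.68 (adjusted p = 0.00121, and 0.0581 without knockout mouse 1). Against ductal progenitors the difference was 0.30 (adjusted p = 0.0774), and 0.43 (adjusted p = 0.0140) without the ductal progenitor array of wild-type mouse 1.

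Irs1, the docking protein that links the activated receptor to PI3K, ran the other way. In alveolar progenitors it lay at 9.62 and 9.91 in wild type and at 9.45 and 9.79 in knockout. In ductal progenitors it lay at 8.72 and 9.25 in wild type and at 8.75 and 9.15 in knockout. In non-clonogenic luminal cells it lay at 7.41 and 8.44 in wild type and at 8.65 and 8.97 in knockout. Alveolar progenitors held the 4 highest arrays, and the lowest array of the 16 was the non-clonogenic luminal one of wild-type mouse 1. In myoepithelial cells Irs1 was at 8.22 and 7.49 in wild type and at 7.90 and 7.70 in knockout. Myoepithelial cells were 2.27-fold below the luminal mean (-1.18 ± 0.19, adjusted p = 0.000302). They were below alveolar progenitors by -1.87 (adjusted p = 6.08e-05) and below ductal progenitors by -1.14 (adjusted p = 0.00205), and the latter call was lost without knockout mouse 2 (-0.99, adjusted p = 0.0765). Against non-clonogenic luminal cells the difference was -0.54 ± 0.24 and was not called (adjusted p = 0.0865). Ductal progenitors were below alveolar progenitors by -0.73 ± 0.24, close to the threshold (adjusted p = 0.0470), and the call was made in 14 of 32 alternatives. It was lost without any single knockout array, without either wild-type alveolar progenitor array and without the ductal progenitor array of wild-type mouse 1 (adjusted p = 0.0617 to 0.160). It was also lost without knockout mouse 1 (adjusted p = 0.293) or knockout mouse 2 (adjusted p = 0.277). Non-clonogenic luminal cells were below alveolar progenitors by -1.33 (adjusted p = 0.00106), and in knockout arrays alone by -0.81 (adjusted p = 0.127).

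Counted over the members, 7 of 9 were called between myoepithelial and luminal cells, 6 higher and 1 lower. Of all genes, 48% were called there, 23.5% higher and 24.4% lower, so the members' share was above the background on the higher side. With 9 members, 1 lower call is too few to set against 24.4%. The members were chosen with earlier results of these data known. The median member difference was 1.82, and the median over all genes was 0.02. Between non-clonogenic luminal cells and ductal progenitors 1 of 9 was called, Igfbp5, where 0.795% of all genes were. Between ductal and alveolar progenitors 3 of 9 were called, all lower in ductal progenitors, where 22% of all genes were called and 10.7% lower. Igf1r, Igfbp5 and Irs1 were also the 3 called between non-clonogenic luminal cells and alveolar progenitors, where 28.5% of all genes were called and 12.6% lower. Myoepithelial cells against each luminal population gave 6 of 9 calls for non-clonogenic luminal cells (45% of all genes), 6 of 9 for ductal progenitors (41.7%) and 7 of 9 for alveolar progenitors (36.5%).

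Ranking the 4 populations by each member's mean gave 27 pairs of neighbours, of which 9 were called. Such steps were not counted over all genes, so 9 of 27 cannot be read as high or low. For Igf1r the order was myoepithelial, alveolar, ductal and non-clonogenic luminal, with the first 2 steps called. Igfbp2, Igfbp3 and Igfbp4 each had 1 called step, from myoepithelial cells down to the alveolar progenitors. Igfbp5 had all 3 steps called, with alveolar progenitors first and myoepithelial cells second. Irs1 had the step from alveolar to ductal progenitors called. Igf1, Igf2 and Igfbp6 had no called step. The nearest to a call was the step of Igfbp6 from ductal to alveolar progenitors (0.38 ± 0.13, adjusted p = 0.0527), which passed the threshold with the parent pair as a block (adjusted p = 0.0453) and without the ductal progenitor array of wild-type mouse 2 (adjusted p = 0.0112).

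Markers of other cell types also differed between the populations. In myoepithelial arrays 7 of 8 endothelial markers and all 3 measured pericyte markers were called higher than in luminal cells. Their array means were 6.19 to 7.13 against 5.58 to 5.95 for endothelium, and 6.59 to 6.91 against 5.80 to 6.09 for pericytes. Of 4 measured adipocyte markers 2 were called higher, with array means of 6.43 to 6.86 against 5.49 to 6.35. Of the fibroblast markers 2 of 7 were called higher, and of the leukocyte markers 1 of 7. Of all genes, 23.5% were called higher in this comparison, so the fibroblast and leukocyte counts are not read as above that share. Myoepithelial markers were also unequal among luminal cells, with 6 of 8 called lower in ductal than in alveolar progenitors (median -0.56). Of the 7 fibroblast markers, 4 were called higher in ductal than in alveolar progenitors. Of all genes, 11.3% were called higher and 10.7% lower in that comparison. The part of these markers in the members' differences was not tested.

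**Figure D3:**
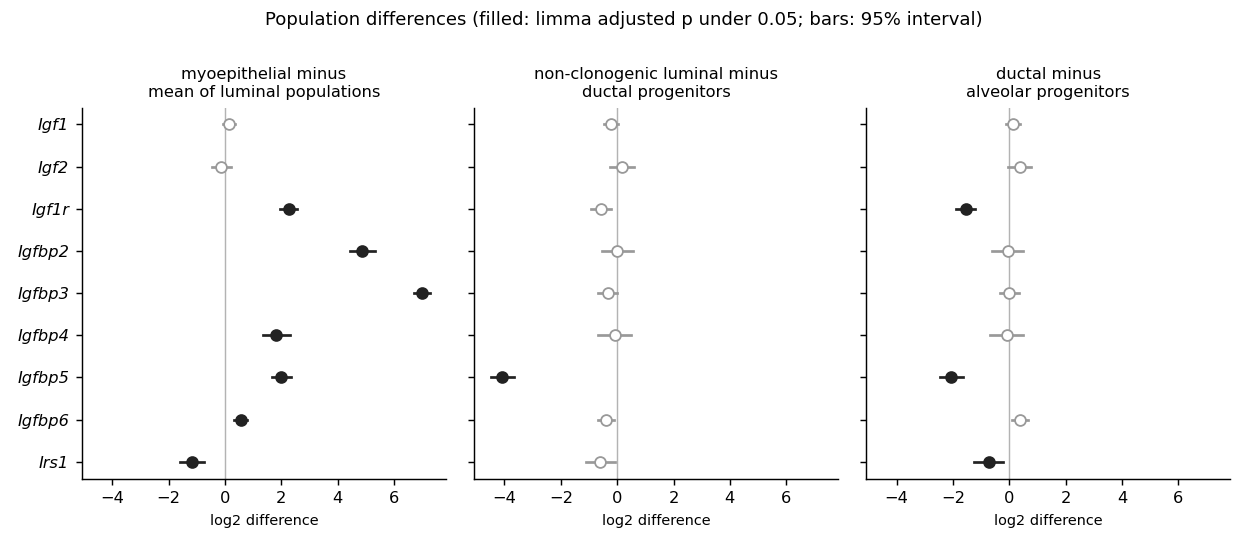
Log2 differences (horizontal axis) with 95% intervals for the 9 measured genes, in 3 comparisons of populations over both genotypes: myoepithelial minus the luminal mean, non-clonogenic luminal minus ductal progenitors, and ductal minus alveolar progenitors. Filled points passed an adjusted p of 0.05; there are 7, 1 and 3 of them.

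Loss of Cpeb2 left no member called in any population. The background was 2.06% of all genes called in non-clonogenic luminal cells, 7.44% in ductal progenitors, 0.62% in alveolar progenitors, 1.01% in myoepithelial cells and 10.2% for the mean over populations. At an unadjusted p under 0.05 there were 2 members in non-clonogenic luminal cells, 1 in ductal progenitors, 1 in alveolar progenitors, 3 in myoepithelial cells and 1 for the mean. Of all 17097 genes, such a p was found for 2919, 4802, 1624, 2434 and 4602, in the same order. The median absolute member difference was 0.14 in non-clonogenic luminal cells, 0.34 in ductal progenitors, 0.20 in alveolar progenitors and 0.22 in myoepithelial cells. Over all genes it was 0.15, 0.21, 0.11 and 0.14, in the same order. Small estimates were loosely bounded too. For Igf1r the mean knockout difference was -0.08, with a 95% interval from -0.35 to 0.19. For Igfbp3 in myoepithelial cells the knockout difference was -0.03, with an interval from -0.52 to 0.46.

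Among non-clonogenic luminal arrays, Igf2 was lower in both knockout mice than in both wild-type mice, by 1.84-fold (-0.88 ± 0.28, adjusted p = 0.135). Its mean knockout difference was -0.38 ± 0.15 (adjusted p = 0.122), and with the parent pair as a block it was called (adjusted p = 0.0401). Without the non-clonogenic luminal array of wild-type mouse 2 both differences were called, at -1.33 (adjusted p = 0.0297) and -0.49 (adjusted p = 0.0315). Without that of wild-type mouse 1 they were -0.43 (adjusted p = 0.617) and -0.27 (adjusted p = 0.225), and without all arrays of that mouse -0.40 (adjusted p = 0.351) and -0.13 (adjusted p = 0.455). Without the ductal progenitor array of wild-type mouse 1 the mean difference was -0.30 (adjusted p = 0.237). The second probe set gave -1.50 in non-clonogenic luminal cells and was not called. The cell cycle gene mean in those cells was 9.03 to 10.0 in wild type and 6.29 to 6.69 in knockout, and 6 of 9 such genes were called lower. Whether that difference bears on Igf2 was not tested.

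Igfbp5 had knockout differences of both signs, as did several other members. Knockout was above wild type in alveolar progenitors by 1.79-fold (0.84 ± 0.27, adjusted p = 0.270). It was below wild type in myoepithelial cells (-0.76 ± 0.27, adjusted p = 0.229) and in ductal progenitors (-0.70 ± 0.27, adjusted p = 0.122), while the difference was 0.12 among non-clonogenic luminal arrays (adjusted p = 0.861). With 2 arrays per genotype, the genotypes did not overlap in any of the 4 populations. How many of all genes separate this way was not counted, so lack of overlap, for any gene here, only describes these arrays. The nearest arrays were close in ductal progenitors (9.11 in wild type, 9.06 in knockout) and in non-clonogenic luminal cells (5.14 against 5.20). The test of whether the effect differs between populations gave an adjusted p of 0.116 for Igfbp5, the lowest of the 9 members, of which none was called by limma and 1, Igfbp5 itself, had an unadjusted p under 0.05. Of all 17097 genes, 0.667% were called by that test and 2872 had an unadjusted p under 0.05. Without the ductal progenitor array of wild-type mouse 2 this test passed (adjusted p = 0.0124), as did the ductal progenitor difference (-1.19, adjusted p = 0.00758). Without that of wild-type mouse 1 the ductal progenitor difference was -0.21 (adjusted p = 0.772). In the same cells 2 of 6 alveolar markers were called lower in the knockout, with a median of -0.47. In myoepithelial arrays the endothelial marker mean was 6.50 to 7.13 in knockout and 6.19 to 6.25 in wild type.

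Igfbp2, Igfbp6 and Irs1 each had 1 population where the unadjusted p was under 0.05. Igfbp2 was lower in knockout myoepithelial cells by -0.92 ± 0.36 (adjusted p = 0.268), with overlapping genotypes, because wild-type mouse 1 lay with the knockouts. Without that array the difference was -1.73 (adjusted p = 0.000281), and without that of wild-type mouse 2 it was -0.11 (adjusted p = 0.887), each resting on 1 wild-type array. Igfbp6 was higher in knockout myoepithelial cells by 0.49 ± 0.18 (adjusted p = 0.249) without overlap. Irs1 was higher in knockout non-clonogenic luminal cells by 0.88 ± 0.34 (adjusted p = 0.215) without overlap, by 1.40 (adjusted p = 0.0194) without wild-type mouse 2 and by 0.37 (adjusted p = 0.536) without wild-type mouse 1. For the brightest probe sets, the remaining members' knockout differences within populations ran from -0.47 for Igf1r in non-clonogenic luminal cells to 0.31 for Igf1r in alveolar progenitors. Other probe sets went further without a call. The 6 Igfbp4 probe sets ran from -1.56 to 0.21 in ductal and from 0.08 to 1.39 in alveolar progenitors. The 4 Igf1r probe sets ran from -0.80 to -0.40 in ductal progenitors and from 0.23 to 0.57 in myoepithelial cells.

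**Figure D4:**
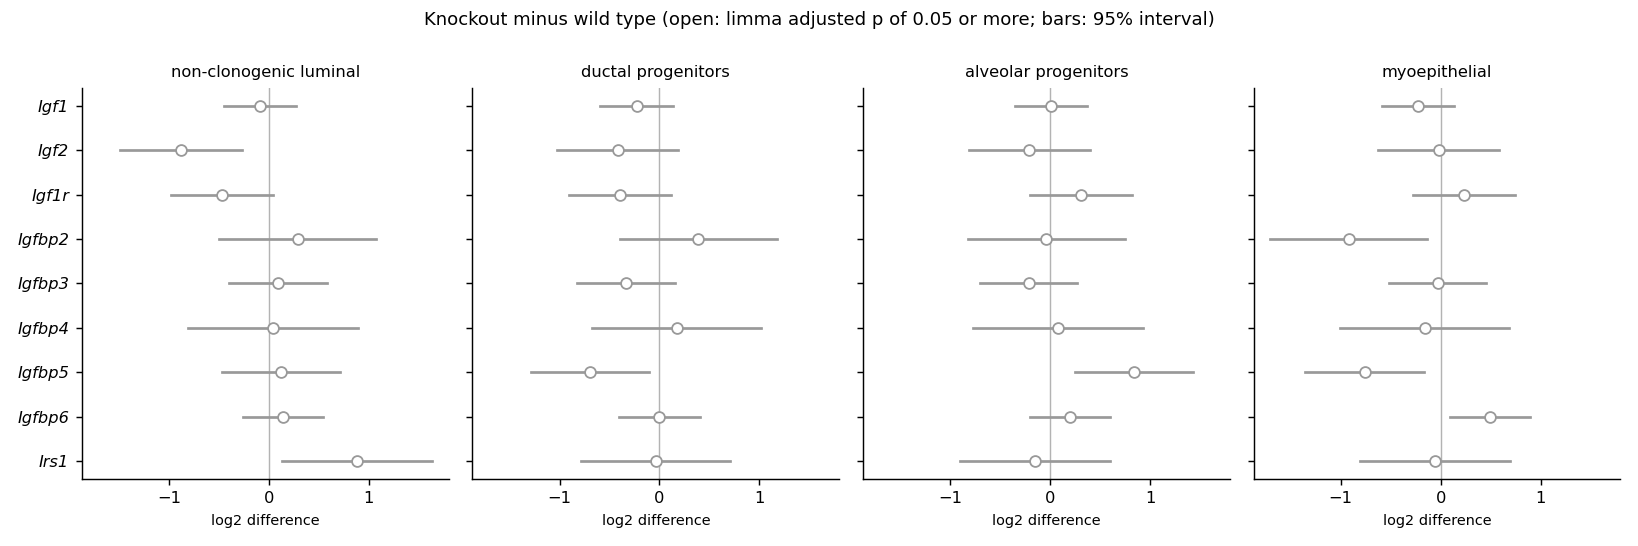
Knockout minus wild-type log2 differences (horizontal axis) with 95% intervals for the 9 measured genes in each of the 4 populations. All points are open, meaning that none passed an adjusted p of 0.05; Igfbp5 lies at 0.84 in alveolar progenitors and at -0.76 in myoepithelial cells.

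Around the members, 48 further genes of the pathway were listed in 4 groups, of which 40 were measured. Of 9 measured extracellular regulators, 3 were higher and 1 lower in myoepithelial cells than in luminal cells, against 23.5% of all genes higher and 24.4% lower. Pappa encodes PAPP-A, the protease that cuts IGFBP4. It lay at 10.70 and 10.50 in wild-type and at 9.72 and 11.17 in knockout myoepithelial cells, and the luminal arrays ranged from 5.79 to 7.27. Pappa, like Igfbp4, was highest in the myoepithelial arrays, with a difference of 4.36 ± 0.25, or 20.6-fold (adjusted p = 3.64e-08). Htra1, a secreted serine protease, was higher by 10.5-fold (3.39 ± 0.28, adjusted p = 7.25e-07).

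Stc2 encodes stanniocalcin 2, an inhibitor of PAPP-A. It lay at 11.12 and 11.53 in wild-type and at 12.18 and 11.66 in knockout non-clonogenic luminal cells, and at 10.59 and 11.78 against 12.17 and 11.90 in ductal progenitors. In alveolar progenitors it lay at 8.36 and 8.38 against 7.76 and 8.37. Its levels in the Sca1+ cells were above those in alveolar progenitors in every array, opposite in direction to Igfbp5. Ductal progenitors exceeded alveolar progenitors by 3.39 ± 0.39, or 10.5-fold (adjusted p = 5.39e-05). Stc1 was lower there (-0.50, adjusted p = 0.00351), but the arrays of the 2 populations overlapped. Its means of 5.38 in ductal and 5.88 in alveolar progenitors were not far above the low-signal mark. None of the 9 extracellular regulators was called by limma between the genotypes. At an unadjusted p under 0.05 there were at most 2 of 9 in any population, against 1624 to 4802 of all 17097 genes.

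Of 9 measured receptors and adaptors, 1 was higher and 5 were lower in myoepithelial cells than in luminal cells, against 23.5% and 24.4% of all genes (median -0.67, against 0.02 over all genes). The docking protein gene Gab2 was lower by 6.53-fold (-2.71 ± 0.15, adjusted p = 2.98e-08). The adaptor genes Grb10, Grb14 and Grb2 were lower by -1.33, -0.96 and -0.77 (adjusted p = 1.53e-05, 0.000272 and 0.000192). Igf1r was higher in that comparison. Against alveolar progenitors alone Grb14 was higher in myoepithelial cells, as Igf1r was (0.61 ± 0.19, adjusted p = 0.0258). That call was lost without knockout mouse 1, knockout mouse 2 or wild-type mouse 2 (adjusted p = 0.108 to 0.170), without any 1 of 5 single arrays of those populations and in either genotype alone. Between ductal and alveolar progenitors, Insr, the insulin receptor gene, was higher by 1.16 (adjusted p = 8.86e-05), opposite to Igf1r. Grb14 was also higher there (1.98, adjusted p = 1.32e-05), and Gab1 (-1.41, adjusted p = 9.11e-06) and Grb10 (-1.57, adjusted p = 7.18e-05) were lower. The Grb14 mean in alveolar progenitors was 5.08, with 2 of 4 arrays under the lower quartile, so its differences against them rest on a low signal.

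Of 20 measured genes of the PI3K, AKT, mTOR and FOXO group, 4 were higher and 4 lower in myoepithelial cells, where 48% of all genes were called in either direction. The regulatory subunit gene Pik3r1 was higher (0.87, adjusted p = 4.11e-05) and Pik3r3, for another regulatory subunit, was lower (-0.97, adjusted p = 3.34e-05). Between ductal and alveolar progenitors 1 gene of this group was higher and 3 were lower, against 11.3% and 10.7% of all genes. Pik3r3 was the higher one (1.67, adjusted p = 8.14e-06). Igf2bp1 and Igf2bp3, which encode proteins known to bind Igf2 RNA, were not called by limma in any comparison. Of the 2, 1 had an unadjusted p under 0.05, between the genotypes in myoepithelial cells, as had 2434 of all 17097 genes.

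Between knockout and wild type, 1 receptor or adaptor gene was called in non-clonogenic luminal cells and 1 in ductal progenitors, both lower, and 3 genes of the PI3K group were called in ductal progenitors, 2 higher and 1 lower. Of all genes 2.06% and 7.44% were called in these populations. Grb10, an imprinted adaptor that restrains insulin and IGF receptor signalling, lay at 8.22 and 7.47 in wild-type and at 5.72 and 6.39 in knockout ductal progenitors. In alveolar progenitors it lay at 8.31 and 8.49 against 8.66 and 8.63, and in myoepithelial cells at 5.26 and 5.65 against 6.48 and 6.07. Both knockout ductal progenitor arrays were below both wild-type ones, and the order was the opposite in the alveolar and myoepithelial arrays. The ductal progenitor difference was -1.79 ± 0.27, or 3.46-fold (adjusted p = 0.00625). The call was lost without the ductal progenitor array of knockout mouse 1 (-1.46, adjusted p = 0.0714) or wild-type mouse 1 (-1.40, adjusted p = 0.0716), and without either knockout mouse (adjusted p = 0.167 without mouse 1 and 0.0775 without mouse 2). It was also lost without wild-type mouse 1 (adjusted p = 0.0561) and when only the ductal progenitor arrays were fitted (adjusted p = 0.0922).

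Grb14 was called lower in knockout non-clonogenic luminal cells, where it lay at 8.44 and 8.50 in wild type and at 7.39 and 6.82 in knockout (-1.36 ± 0.27, adjusted p = 0.0300). The call was lost without either wild-type array or the second knockout array of that population, without either knockout mouse, without either knockout alveolar progenitor array and when only the arrays compared were fitted (adjusted p = 0.0509 to 0.504). In ductal progenitors Akt2 was higher in the knockout (1.11 ± 0.23, adjusted p = 0.0213), Pik3r1 was higher (0.80 ± 0.20, adjusted p = 0.0359) and Pik3cb was lower (-1.15 ± 0.28, adjusted p = 0.0364). Without the ductal progenitor array of wild-type mouse 1, Akt2 was at 0.71 (adjusted p = 0.196), Pik3cb at -0.57 (adjusted p = 0.275) and Pik3r1 at 0.84 (adjusted p = 0.217). For Pik3r1 the mean of all its probe sets gave 0.08 (adjusted p = 0.858). All 3 calls were also lost without either knockout mouse (adjusted p = 0.111 to 0.347). In that population the fibroblast markers had a median knockout difference of -1.47 and all 9 measured cell cycle genes were called lower. Of 4 measured hormone-sensing markers 2 were called higher (median 0.88), and 2 of 6 alveolar markers were called lower (median -0.47). The part of any of these in these ductal progenitor differences was not tested. For the mean over populations Grb14 (-0.57, adjusted p = 0.0289), Pik3r1 (0.48, adjusted p = 0.0132) and Pik3r3 (-0.42, adjusted p = 0.0384) were called. Without knockout mouse 1 Grb14 (adjusted p = 0.0654) and Pik3r1 (adjusted p = 0.0651) lost the call, and without knockout mouse 2 Pik3r3 did (adjusted p = 0.289).

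**Figure D5:**
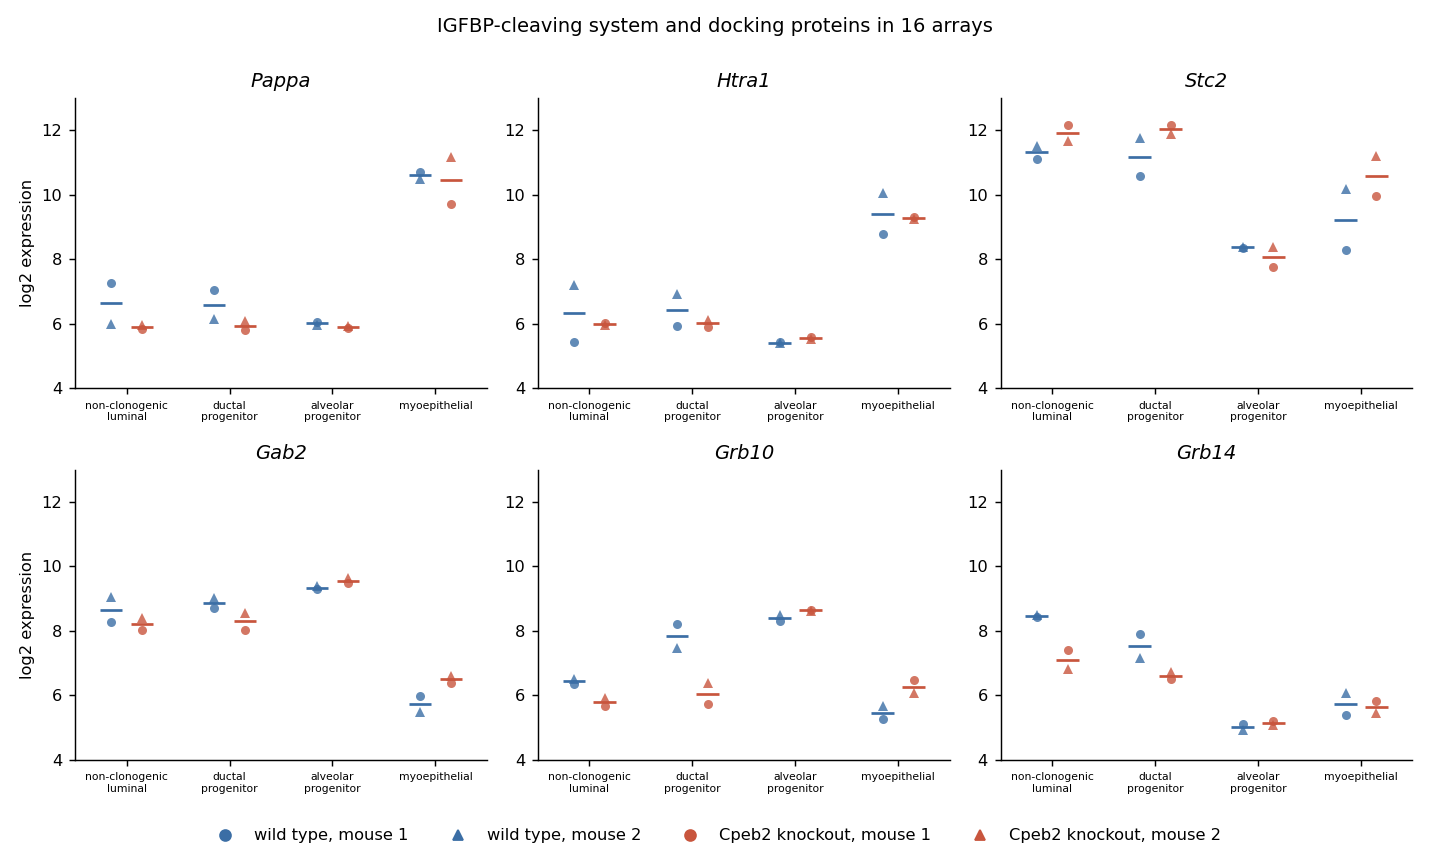
Log2 level of Pappa, Htra1, Stc2, Gab2, Grb10 and Grb14 in each array (vertical axes) by sorted population (horizontal axes), with wild type in blue and knockout in red, circles for mouse 1 and triangles for mouse 2. Pappa and Htra1 are high in the 4 myoepithelial arrays, Gab2 is low there, and Grb10 in ductal progenitors lies at 8.22 and 7.47 in wild type against 5.72 and 6.39 in knockout.

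Among 5807 genes whose group means spanned at least 1 log2 unit, the genes with the pattern most like each member over the 16 arrays were found by Pearson's r, as a description over arrays that share mice and populations. For Igfbp3 they were Mylk, Cxcl14 and Ltbp4 (r = 0.997 for each), and Mylk, myosin light chain kinase, is a myoepithelial marker of the contractile apparatus. For Igfbp2 they were Lmo1 (0.997), Irx4 (0.996) and Snai2 (0.995), and for Igfbp4 Phyhipl and Vwa1 (both 0.976) and Aqp9 (0.975). For Igf1r they were Car13 (0.988), Tiam1 (0.985) and B4galt6 (0.984). Igfbp5, with its own pattern of alveolar, myoepithelial and ductal signal, was nearest to Rhoj (0.974), Cyp1b1 (0.966) and Flrt3 (0.966). For Irs1 they were Spns2 (0.929), Myo6 and Btbd3 (both 0.904).

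For Igf2 the nearest were Dock11 (0.930), Ccne1 (0.915), a cyclin gene, and 6720489N17Rik (0.909). For Igfbp6 they were Procr (0.886), Serping1 (0.875) and Mmp2 (0.869). Between members the highest correlations over the 16 arrays were those of Igfbp2 with Igfbp3 (0.977), Igfbp2 with Igfbp4 (0.950) and Igfbp3 with Igfbp4 (0.917), and Igf1r with Igfbp5 gave 0.788.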

How the data were processed

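The authors deposited log2 expression values per probe set for 16 arrays. RMA and limma are named in the submitters' processing notes, with no role or version. The sources used here do not state the background correction, any batch correction or any filter. Per the labels' protocols, 15 ng of RNA was amplified and 8 µg of cDNA was labelled. The table holds 45141 probe sets, of which 28898 had 1 gene symbol, 551 several and 15588 none, and 104 were controls. The brightest probe set stood for each gene. Limma 3.58.1 (R 4.3.3, statmod 1.5.0) was fitted with 8 group means, the mouse as a random block (correlation 0.0383) and eBayes with a trend (8 residual and 3.90 prior degrees of freedom); the fit was tested on simulated data. Each population contrast averages the 2 genotypes.

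The parent pairs come from the labels. Residuals of knockout and wild-type arrays of the same pair correlated at -0.04 to 0.07. Within the same mouse, residuals of non-clonogenic luminal cells and ductal progenitors correlated at 0.56 in wild type and 0.58 in knockout. Other pairs of populations within a mouse gave -0.17 to 0.35. The fit used a single block correlation of 0.0383 for all of them. Of other listed genes, up to 4 called per list and comparison could be named, and for each member spanning 1 log2 unit the 3 most like. The members and lists were chosen with earlier results of these data known. Alternatives were the probe set choice, the block, the trend, array weights, quantile normalization, a filter on low values, the arrays fitted, each mouse or array left out and, added after seeing the data, either genotype alone.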

Additional observations from a re-analysis of the deposited data

Results flagged for a closer look

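The knockout difference of Grb10, an adaptor that restrains insulin and IGF receptor signalling, differed between populations by limma's F test over 3 independent differences (adjusted p = 0.0271). Knockout was below wild type in ductal progenitors (-1.79) and non-clonogenic luminal cells and above it in alveolar progenitors and myoepithelial cells. The F test no longer passed with the mean of all probe sets (adjusted p = 0.0936), without any 1 of knockout mouse 1 (adjusted p = 0.582), knockout mouse 2 (adjusted p = 0.245) and wild-type mouse 1 (adjusted p = 0.122), or without any 1 of 7 single arrays, which are the 4 alveolar progenitor arrays and the knockout arrays of mouse 1 in ductal progenitors and myoepithelial cells and of mouse 2 in non-clonogenic luminal cells (adjusted p = 0.0526 to 0.0874).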

How the results depend on the processing

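Counts of members called were recomputed under every alternative. Between non-clonogenic luminal cells and ductal progenitors the count was 2 with the mean of all probe sets and 2 with only the arrays compared, against 1. Settings that left out no mouse or array gave 6 to 7 between myoepithelial and luminal cells, against 7, 2 to 4 between ductal and alveolar progenitors and 2 to 4 between non-clonogenic luminal cells and alveolar progenitors, each against 3. For the mean knockout effect it was 1 with the parent pair as a replicate block, against 0. Leaving out a mouse or an array gave 0 to 2 members for the knockout in non-clonogenic luminal cells, 0 to 3 in ductal progenitors, 0 in alveolar progenitors, 0 to 2 in myoepithelial cells, 0 to 2 for the mean and 0 to 1 for the F test. It gave 7 to 8 between myoepithelial and luminal cells, 1 between non-clonogenic luminal cells and ductal progenitors, 2 to 5 between ductal and alveolar progenitors, 3 to 5 between non-clonogenic luminal cells and alveolar progenitors, and 7 to 11 called steps in the order of populations, against 9. The highest of the knockout counts came without wild-type mouse 2, which called Igf2 and Irs1 in non-clonogenic luminal cells and Igf2, Igfbp3 and Igfbp5 in ductal progenitors, and without wild-type mouse 1, which called Igfbp2 and Igfbp5 in myoepithelial cells. Among the 110 called results, signs turned in 3 cases, all with 1 genotype alone. These were Igfbp5 in myoepithelial cells against alveolar progenitors (0.055 in wild type), Pik3cb in ductal against alveolar progenitors (0.13 in wild type) and Grb10 in myoepithelial cells against ductal progenitors (0.22 in knockout). The cause was not tested. Sign changes that stayed uncalled were not counted. They occurred for several knockout differences, such as Igfbp3 in alveolar progenitors (-0.52 to 0.09), Igfbp4 in myoepithelial cells (-0.87 to 0.55) and Igf1r in myoepithelial cells (-0.10 to 0.56). Beyond the mean knockout effect, the parent-pair block also called Igf2 between non-clonogenic luminal cells and alveolar progenitors (adjusted p = 0.0489) and Igfbp6 between ductal and alveolar progenitors (adjusted p = 0.0453). Over the 110 called results, 161 of 2200 values with a mouse or array left out and 45 of 1308 others lost the call, and of 84 uncalled ones 39 and 21 values gained it. A group left with 1 array was assumed to vary like the others. The fit on only the arrays compared was not run for myoepithelial against luminal cells, which uses all arrays.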
